A study of Homo sapiens with 282 samples.

Results

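Cycloheximide was applied at 0.264 uM for 6 h to OCI-Ly3 cells and compared with the study's vehicle control, 1% DMSO, at the same time. OCI-Ly3 is an established human lymphoma line of the activated B cell class of diffuse large B cell lymphoma. The treated group was made of the 3 arrays whose titles give this compound, dose and time, and the vehicle group of the 8 DMSO arrays of 6 h, out of 282 arrays in the series and 94 at this time. The series profiled 14 compounds, DMSO and plain medium at 6, 12 and 24 h in 96-well plates, and cells were plated before a compound was added. Groups used beside these are 5 uM cycloheximide at 6 h (3 arrays) and untreated medium at 6 h (2 arrays). Also used are 0.264 uM cycloheximide (3 arrays per time) and DMSO (8 arrays per time) at 12 and 24 h. The labels do not give the DMSO content of the cycloheximide wells, and replicates are not described as separate cultures. P-values therefore measure only the spread between these arrays, which may be technical.

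Cycloheximide blocks the elongation step of protein synthesis: it binds the large subunit of cytosolic ribosomes and stops the movement of the ribosome along the message. When proteins with short half-lives are no longer replaced, the genes that such proteins repress can rise, and messages that are degraded as they are translated can last longer. At low doses elongation is slowed and not stopped. In B lymphoma cells with active NF-kB signalling, short-lived inhibitors, cytokines and survival proteins are among the products that depend on continuous synthesis.

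Values are log2 intensities of 18239 genes, each represented by the probe set with the highest mean, and changes are log2 differences ± standard error from limma, called at a Benjamini-Hochberg adjusted p under 0.05 over all genes. Of the 11 arrays compared, DMSO replicate 2 had the lowest median log2 intensity (5.59) and lay furthest from the other arrays of its group. Over all 94 arrays of 6 h in the fit, the 3' to 5' difference of the GAPDH control probe sets reached 0.50 in 1 methotrexate array. That of ACTB reached 0.90 in the same array. The upper quartile of log2 intensity was 8.26 to 8.32 in the treated group and 8.22 to 8.32 in the DMSO group, and correlations between arrays of one group were at least 0.9967 and 0.9944. Treated replicate 3 and DMSO replicate 2 had the highest of these differences in their own groups (0.02 and 0.32 for the treated array, 0.00 and 0.31 for the DMSO array). MALAT1, a nuclear noncoding RNA, lay at 12.57, 11.74 and 11.45 in the treated arrays, with replicates 2 and 3 below all DMSO arrays. Of the B cell identity list, 6 of 22 measured genes had a DMSO mean above the level of the median gene. IRF4, the factor that marks the activated B cell class, stood at 13.14, 13.10 and 13.13 in treated arrays and at 13.06 to 13.20 with a median of 13.18 in DMSO arrays. PAX5, a B lineage factor, was at 7.22, 7.49 and 7.15 and at 6.91 to 7.38 with a median of 7.27 in the same groups.

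At 0.264 uM, 1781 of 18239 genes (9.76%) were called. Of these, 971 rose (5.32% of all genes) and 810 fell (4.44%). Those shares are the background for every list count at 0.264 uM below. The changes were small: the median size among called genes was 0.278, 113 genes moved by more than 0.5, and EIF5 alone moved by more than 1. Without treated replicate 3 the rises numbered 551 and the falls 676, and without replicate 2 they numbered 718 and 526. In 1265 of the called genes all 3 treated arrays lay beyond all 8 DMSO arrays. That separation held for 960 genes above (5.26% of all) and 762 genes below (4.18%). Among the 28 groups of 6 h set against the same DMSO arrays, the number of called genes ran from 0 for 0.036 uM aclacinomycin A (843 at an unadjusted p under 0.05) and 15 for 0.001 uM geldanamycin to 9126 for H-7. Low-dose cycloheximide stood 18th from the lowest. Medium against DMSO, with 2 arrays, gave 4651 calls (25.5%), with 11.7% of all genes higher and 13.8% lower. Values in medium are given beside many of the results.

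**Figure D1:**
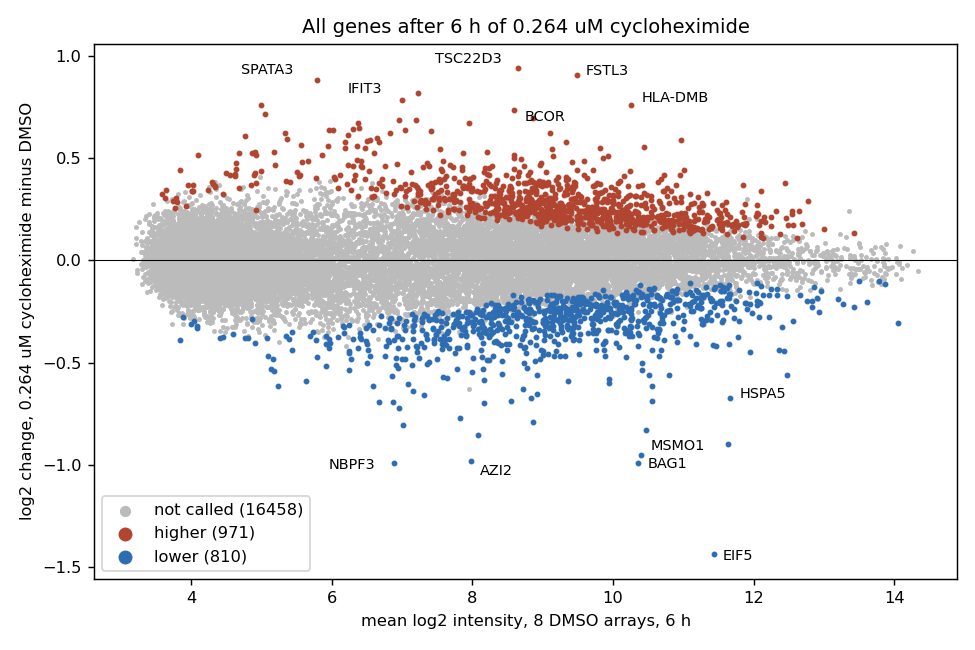
Each point is 1 gene, with its mean log2 intensity in 8 DMSO arrays on the horizontal axis and its log2 change at 0.264 uM cycloheximide for 6 h on the vertical axis. Red points are the 971 genes called higher and blue points the 810 called lower; EIF5 is the lowest point and no called rise passes 1.

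The largest fall was in EIF5, the factor that makes eIF2 hydrolyse its GTP when the start codon is found. Its log2 intensity was 10.02, 9.96 and 10.00 in the treated arrays, against 11.22 to 11.66 with a median of 11.46 in the DMSO arrays. The 3 treated arrays were close together and far below every DMSO array, at 0.369 times the vehicle level (change -1.44 ± 0.067, adjusted p = 2.16e-31). All 7 probe sets of the gene were lower. At 5 uM the change was -1.18 ± 0.067, and the direct test of 5 uM against 0.264 uM gave 0.26 ± 0.081 (adjusted p = 0.0112), so the higher dose lowered EIF5 less.

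Other translation factors moved less. Of 35 measured initiation and elongation factors, 12 fell and 2 rose, with a list median of -0.019 against -0.003 over all genes. Over all genes 4.44% fell and 5.32% rose. In medium 10 of the 35 were called lower than DMSO and 8 higher, against 13.8% and 11.7% of all genes, with a median of 0.004. EEF2K, the kinase that inhibits elongation factor 2, was at 8.66, 8.75 and 8.67 in treated arrays and at 9.07 to 9.31 with a median of 9.15 in DMSO arrays, a change of -0.47 ± 0.064. EEF2 itself, the translocase whose step cycloheximide blocks, was at 13.40, 13.35 and 13.45 in treated arrays, below the DMSO range of 13.57 to 13.64. Its change was -0.20 ± 0.034 (adjusted p = 3.97e-06), and all 8 probe sets were lower. EIF4B, a helper of the cap-binding helicase, and EIF3E, a subunit of initiation factor 3, changed by -0.29 and -0.22. The 2 members that rose were EIF6, which keeps ribosomal subunits apart (0.17), and EIF2B3, part of the eIF2 exchange factor (0.17). EEF1A1, which brings aminoacyl-tRNA to the ribosome, had a change of -0.017 ± 0.041, and EIF4EBP1, an inhibitor of cap binding, -0.046 ± 0.061; neither was called.

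Of 69 measured ribosomal protein genes, 4 fell and 1 rose, where 4.44% of all genes fell and 5.32% rose. At an unadjusted p under 0.05 the counts were 14 and 1, and the list median was -0.044. RPL3 and RPL8 lay just below all DMSO arrays, with changes of -0.12 ± 0.029 and -0.10 ± 0.034, and RPL32 changed by -0.10. RPL27A changed by -0.59, but its single probe set had a low signal, at 5.41 to 5.79 in DMSO arrays. In this list 68 of the 69 genes had a DMSO mean above the median gene. RPL35A was called higher (0.24), and only 1 of its 3 probe sets was higher. RPL36A, whose counterpart in yeast can carry changes that give resistance to cycloheximide, was at 12.78, 12.90 and 12.95 in treated arrays, within the DMSO range of 12.77 to 13.03. At 5 uM, where 16.8% of all genes fell and 16.5% rose, 44 of the 69 fell and 0 rose (0 higher at an unadjusted p under 0.05).

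Host genes of small nucleolar RNAs fell in most members. These noncoding transcripts carry guide RNAs for ribosomal RNA modification in their introns, and many are degraded when ribosomes engage their short reading frames. Of 11 measured, 8 fell and 0 rose (0 also at an unadjusted p under 0.05), with a median of -0.208. EPB41L4A-AS1 lay at 9.54, 9.65 and 9.71 in treated arrays, against 10.32 to 10.55 with a median of 10.49 in DMSO arrays. Its change was -0.83 ± 0.048 (adjusted p = 1.06e-25). SNHG7 was at 9.83, 9.78 and 9.99 in treated arrays, against 10.50 to 10.65 with a median of 10.54 in DMSO arrays, a change of -0.69 ± 0.047. Both separated fully from the vehicle arrays. SNHG8, SNHG12 and TAF1D, a host gene that also encodes a subunit of the RNA polymerase I selectivity factor, changed by -0.38, -0.21 and -0.27, and SNHG1 by -0.092 without a call. In medium the list median was -0.145, and SNHG7 and SNHG12 were lower than DMSO there too (-0.39 and -0.26), whereas EPB41L4A-AS1 was at -0.050 ± 0.056. At 5 uM EPB41L4A-AS1 and SNHG7 were lowered less than at 0.264 uM, with direct differences of 0.44 ± 0.058 and 0.49 ± 0.057 (adjusted p = 1.65e-09 and 3.25e-11).

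Genes of ribosome assembly went the other way more often. Of 38 measured, 8 rose and 2 fell, against 5.32% and 4.44% of all genes, with a median of 0.096. RRP12, a factor of pre-ribosome export, was at 9.42, 9.39 and 9.26 in treated arrays, above the DMSO range of 8.83 to 9.16. NOP58 and DKC1, core proteins of small nucleolar ribonucleoproteins, rose by 0.34 and 0.33, and BOP1, which processes the large-subunit RNA, by 0.36. The members that fell were TAF1D, named above, and POLR1B, an RNA polymerase I subunit (-0.24). In medium 22 of the 38 were called higher than DMSO, against 11.7% of all genes, and the median was 0.296. The part of vehicle content in this list was not tested.

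**Figure D2:**
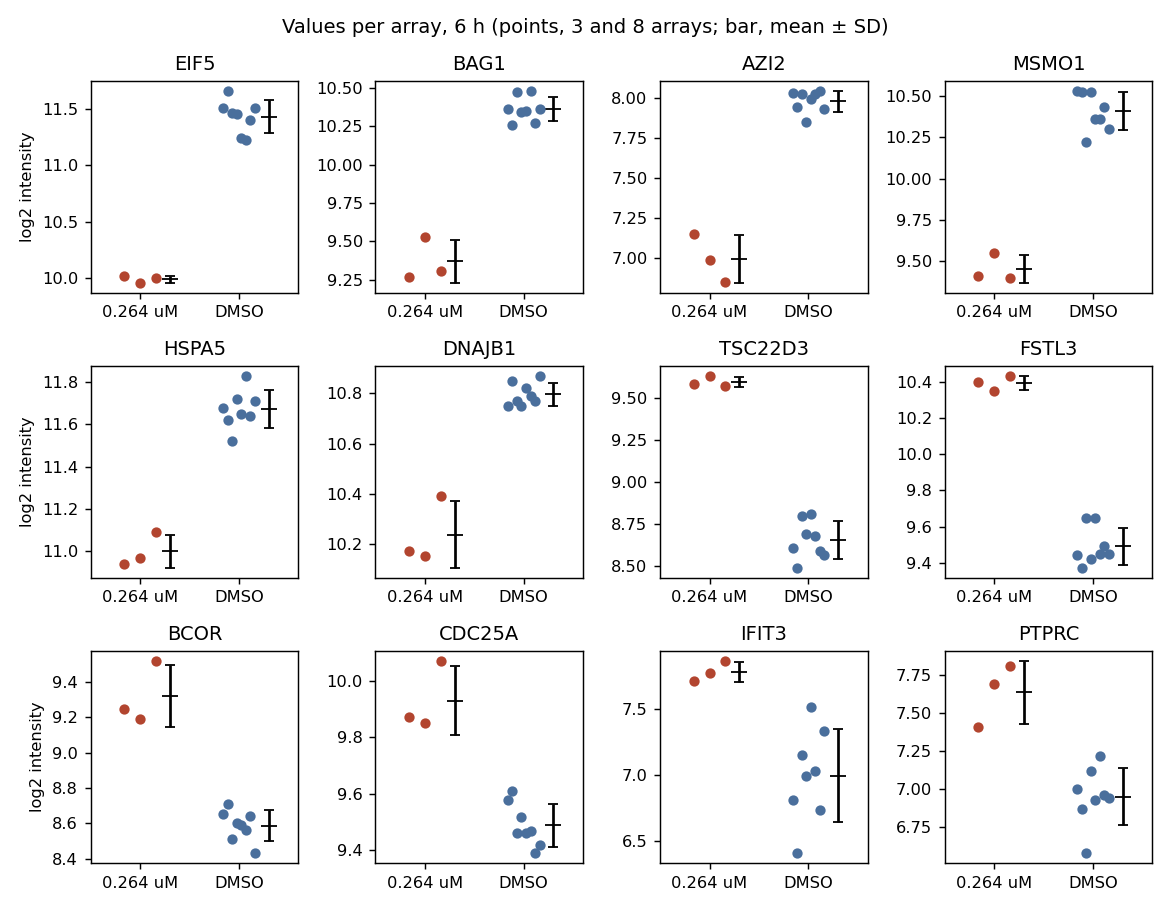
Log2 intensity per array of 12 genes at 6 h, with the 3 arrays of 0.264 uM cycloheximide at the left and the 8 DMSO arrays at the right of each panel, and the mean ± SD as a bar. In each panel the 2 groups do not overlap; EIF5 has the widest gap, and IFIT3 and PTPRC the most spread among DMSO arrays.

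Chaperone genes fell in part in both the cytosol and the endoplasmic reticulum. The cytosolic heat shock proteins fold new and damaged proteins and are driven by HSF1, and the chaperones of the endoplasmic reticulum fold secreted and membrane proteins and are driven by ATF6 and XBP1. Of 25 genes measured for the endoplasmic reticulum and unfolded protein response, 11 fell and 1 rose, with a median of -0.168. Of 24 heat shock chaperones, 11 fell and 1 rose, with a median of -0.141, and 7 fell without treated replicate 3. The background is 4.44% for falls and 5.32% for rises. In medium the endoplasmic reticulum list had 5 members higher and 8 lower than DMSO, with a median of 0.006. The heat shock list had 4 higher and 1 lower there, with a median of 0.076. Over all genes, 11.7% were higher in medium and 13.8% lower.

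HSPA5, the main HSP70 chaperone of the endoplasmic reticulum, was at 10.94, 10.97 and 11.09 in treated arrays, against 11.52 to 11.83 with a median of 11.67 in DMSO arrays. It changed by -0.67 ± 0.063 (adjusted p = 3.57e-14), all 6 of its probe sets were lower, and it was nearer to the vehicle at 5 uM (-0.33; direct difference 0.34 ± 0.076, adjusted p = 0.000289). XBP1, the factor that the stress sensor IRE1 activates by splicing, lay at 9.37, 9.27 and 9.38 in treated arrays and at 9.87 to 10.04 with a median of 9.94 in DMSO arrays. The change in XBP1 was -0.60 ± 0.068, and at 5 uM it was -1.42 ± 0.068. HERPUD1, SEL1L and CRELD2, which serve degradation and folding in the endoplasmic reticulum, changed by -0.44, -0.33 and -0.31. In medium HERPUD1 and SEL1L were lower than DMSO as well (-0.74 and -0.33). HYOU1 was the 1 member called higher, at 11.90, 11.92 and 12.42, and only treated replicate 3 was above the DMSO range of 11.76 to 11.99. Without that array its change was 0.041 with an adjusted p of 0.868. HSP90B1, an abundant chaperone of the same compartment, had a change of -0.050 ± 0.048 and no call.

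DNAJB1, an HSP40 partner of HSP70, was at 10.17, 10.15 and 10.39 in treated arrays and at 10.75 to 10.87 with a median of 10.78 in DMSO arrays, a change of -0.56 ± 0.055 (adjusted p = 1.89e-13). HSPH1, which exchanges nucleotide on HSP70, was at 12.05, 11.96 and 11.95 against a DMSO range of 12.31 to 12.53, and changed by -0.44 ± 0.037. The stress-induced HSP70 genes HSPA1A and HSPA1B changed by -0.45 and -0.41, and since the 2 are near-identical copies their probe sets may share signal. HSPA8, the constant HSP70, changed by -0.31 ± 0.035 at 0.264 uM and by -1.15 ± 0.035 at 5 uM. CCT5, a subunit of the ring chaperonin for actin and tubulin, was the member that rose (0.17). HSP90AB1 changed by -0.097 without a call. BAG1, an exchange factor that ties HSP70 to the proteasome, was not on the list and fell the most of any chaperone gene named here. It was at 9.27, 9.53 and 9.31 in treated arrays, against 10.26 to 10.48 with a median of 10.36 in DMSO arrays. The change in BAG1 was -0.99 ± 0.052 at 0.264 uM and -0.37 ± 0.052 at 5 uM, with a direct difference of 0.62 ± 0.062 (adjusted p = 7.2e-14), and medium was at 0.024 ± 0.060 against DMSO. None of the 27 measured proteasome and ubiquitin genes was called by limma in either direction, with 2 higher and 2 lower at an unadjusted p under 0.05.

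The promoters of 2 of these genes are shown because they hold the elements that the 2 chaperone pathways are known to use. They are the 250 bases before the RefSeq start on GRCh38.p14, minus strand for both, HSPA5 at chr9:125241344-125241593 and HSPA8 at chr11:123062137-123062386, printed 5′ to 3′. Capitals mark the endoplasmic reticulum stress element in HSPA5 (CCAAT, any 9 bases, then CCACG) and the heat shock element in HSPA8 (GAA, TTC and GAA, or TTC, GAA and TTC, with any 2 bases between blocks), each searched on both strands.
HSPA5: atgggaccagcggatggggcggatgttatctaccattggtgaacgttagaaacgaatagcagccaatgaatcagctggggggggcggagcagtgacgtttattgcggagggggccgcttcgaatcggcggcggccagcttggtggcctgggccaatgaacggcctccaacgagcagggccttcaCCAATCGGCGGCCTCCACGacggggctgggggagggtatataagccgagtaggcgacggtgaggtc
HSPA8: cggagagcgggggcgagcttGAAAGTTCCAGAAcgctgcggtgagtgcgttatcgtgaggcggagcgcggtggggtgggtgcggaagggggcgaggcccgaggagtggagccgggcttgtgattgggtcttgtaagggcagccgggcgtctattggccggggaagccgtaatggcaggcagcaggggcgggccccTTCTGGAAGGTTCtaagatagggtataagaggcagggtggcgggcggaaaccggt
The stress element was found in 0.0806% of 27305 promoter windows, and the heat shock element in 0.439%. Among the 11 members of the endoplasmic reticulum list that fell and had a promoter entry, 3 held the first motif, and so did 3 of the 12 others. Among 11 heat shock members that fell and had an entry, 3 held the second, against 0 of the 11 others. In HSPA5 the element begins at -66 from the start, and in HSPA8 the matches begin at -230 and -55. A match describes the letters in the window and nothing more.

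Genes of the amino acid response fell in part. ATF4 is the factor that is translated more when eIF2 is phosphorylated, and it drives amino acid import, synthesis and tRNA charging. Of 29 measured members, 13 fell and 1 rose, with a median of -0.132. SLC7A11, the cystine importer, was at 6.22, 6.21 and 6.27 in treated arrays and at 6.74 to 7.18 with a median of 6.97 in DMSO arrays, a change of -0.72 ± 0.11 (adjusted p = 1.12e-06). PSAT1, of serine synthesis, changed by -0.47 ± 0.075, and SLC38A2, a neutral amino acid importer, by -0.34 ± 0.052. ASNS, asparagine synthetase, lay between 10.99 and 11.03 in the 3 treated arrays, against 11.36 to 11.49 with a median of 11.43 in DMSO arrays. The ASNS change was -0.41 ± 0.035, and its 4 probe sets were all lower. SLC7A11 and PSAT1 were higher in medium than in DMSO (0.57 and 0.23), and ASNS and SLC38A2 were lower (-0.19 and -0.17).

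ATF4 mRNA was at 12.29, 12.25 and 12.26 in treated arrays, against 12.49 to 12.65 with a median of 12.57 in DMSO arrays, a change of -0.30 ± 0.039. At 5 uM it stood at 12.88, 12.84 and 12.92, above all DMSO arrays. ATF5, a related factor, was the member that rose, by 0.37 ± 0.089, with treated replicate 3 the highest at 9.67. Without that replicate it was 0.245 with an adjusted p of 0.154. DDIT4, an inhibitor of mTORC1 signalling, had -0.027 ± 0.054 and no call. Among 19 measured cytosolic tRNA synthetases, 3 fell and 2 rose, against 4.44% and 5.32% of all genes. The changes were -0.27 for CARS1, -0.15 for SARS1 and -0.14 for NARS1, and those of VARS1 and FARSB were 0.36 and 0.17.

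The ASNS promoter is shown because its amino acid response element is a textbook site of ATF4. The window is chr7:97872409-97872658 on GRCh38.p14, minus strand, and capitals mark TGATGNAA, searched on both strands.
ASNS: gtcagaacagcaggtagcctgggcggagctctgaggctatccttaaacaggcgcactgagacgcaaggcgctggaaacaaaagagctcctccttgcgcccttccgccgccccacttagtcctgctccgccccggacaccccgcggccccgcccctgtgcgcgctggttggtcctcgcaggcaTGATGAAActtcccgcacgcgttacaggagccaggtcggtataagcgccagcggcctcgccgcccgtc
The element begins at -68 and was present in 3.19% of all promoter windows. It occurred in 2 of the 10 members that fell and had a promoter entry, and in 1 of the 13 others.

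Sterol synthesis genes fell in part at this dose. They are driven by SREBP factors, which INSIG1 holds in the endoplasmic reticulum when sterols are plentiful. Of 28 measured genes of cholesterol and fatty acid synthesis, 11 fell and 2 rose, with a median of -0.079, and 11 fell also without treated replicate 3. MSMO1, which removes methyl groups from lanosterol, was at 9.41, 9.55 and 9.40 in treated arrays and at 10.22 to 10.53 with a median of 10.40 in DMSO arrays. Its change was -0.95 ± 0.064 (adjusted p = 1.42e-21), and 5 uM gave -1.08 ± 0.064. INSIG1 lay at 10.09, 9.83 and 9.95 in treated arrays, against 10.32 to 10.68 with a median of 10.56 in DMSO arrays. DHCR7, the last enzyme of cholesterol synthesis, was at 8.24, 8.23 and 8.21 in treated arrays, against 8.65 to 8.88 with a median of 8.71 in DMSO arrays. Their changes were -0.56 ± 0.065 and -0.50 ± 0.057. SCD, the fatty acid desaturase, changed by -0.44, HMGCS1, of the mevalonate pathway, by -0.38, and SC5D, a sterol desaturase, by -0.44. HMGCS1 and SC5D were also lower in medium than in DMSO (-0.51 and -0.58), while INSIG1, DHCR7 and SCD were at -0.071, 0.18 and 0.17 there. The members that rose were SREBF1, which encodes the SREBP1 factor (0.31, with 2 of 3 probe sets higher), and PMVK, phosphomevalonate kinase (0.23). SQLE, squalene epoxidase, was at 0.054 ± 0.068 and not called.

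**Figure D3:**
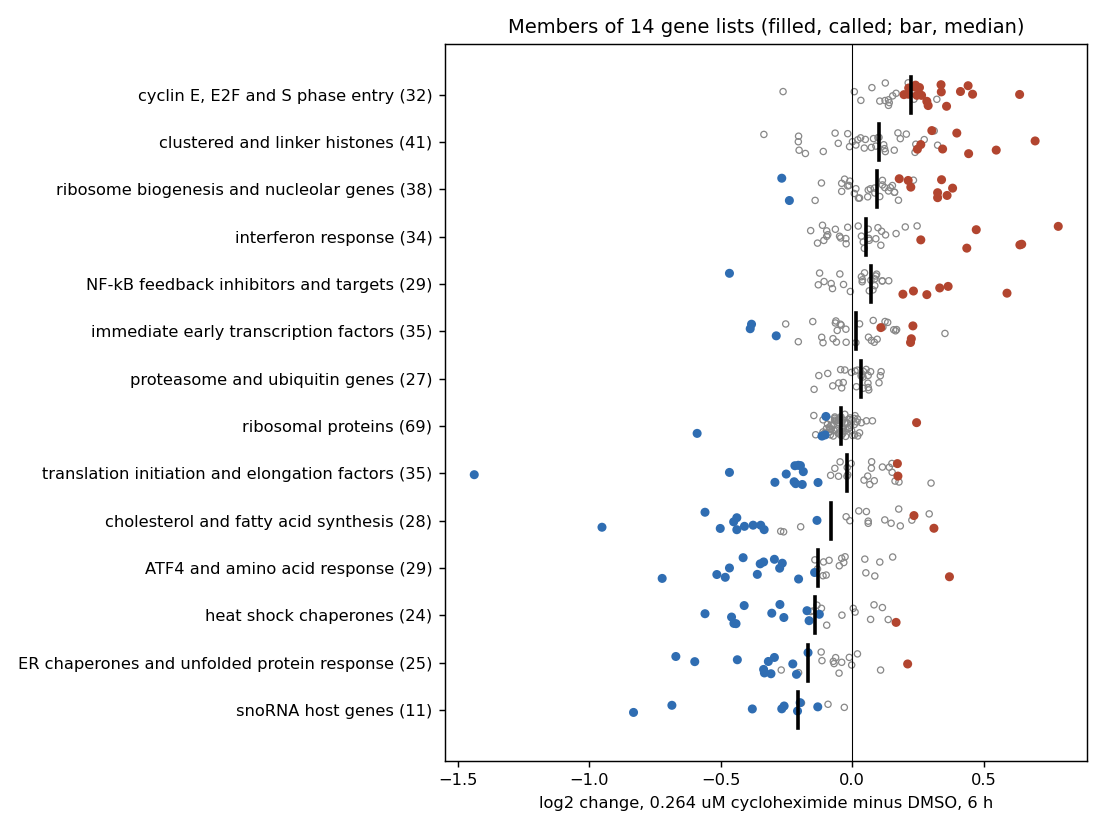
Each point is 1 gene of 1 of 14 lists, placed by its log2 change at 0.264 uM cycloheximide for 6 h; filled points were called, and the black bar is the list median. The median is 0.225 for S phase entry genes at the top and -0.208 for small nucleolar RNA host genes at the bottom, and the proteasome list has no filled point.

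Genes of S phase entry rose in many members. Cyclin E, the E2F factors and the MCM helicase act in the entry into S phase and the start of DNA replication. Of 32 measured, 17 rose and 0 fell (1 lower at an unadjusted p under 0.05), with a median of 0.225. Per treated array the median was 0.166, 0.169 and 0.298, and 13 rose when replicate 3 was left out. CDC25A, the phosphatase that activates CDK2, was at 9.87, 9.85 and 10.07 in treated arrays and at 9.39 to 9.61 with a median of 9.47 in DMSO arrays, a change of 0.44 ± 0.063 (adjusted p = 1.34e-07). MCM10, which helps to load DNA polymerase, was at 9.07, 8.99 and 9.13 against a DMSO range of 8.52 to 8.85, and changed by 0.41 ± 0.066. MCM7 and MCM2, helicase subunits, changed by 0.34 ± 0.044 and 0.34 ± 0.064, with all 4 probe sets of each gene higher. CDK6, the partner of D cyclins, rose by 0.25, and CCND2 and CCND3, D cyclins, by 0.24 and 0.21. Only 1 of 2 probe sets of CCND3 was higher. TYMS, thymidylate synthase, had 0.12 ± 0.052 and no call. The cyclin E genes and most E2F genes of the list were not called either. In medium 13 of the 32 were called higher than DMSO and 4 lower, against 11.7% and 13.8% of all genes. The list median in medium was 0.171. CDC25A was at 0.44, MCM10 at 0.13 and MCM7 at 0.24 there. The part of vehicle content in this list was not tested.

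The CDC25A promoter is shown since E2F sites are a known feature of S phase genes. The window is chr3:48188418-48188667 on GRCh38.p14, minus strand, and capitals mark the motif TTTGGCGC, one of 3 searched on both strands with TTTCCCGC and TTTCGCGC.
CDC25A: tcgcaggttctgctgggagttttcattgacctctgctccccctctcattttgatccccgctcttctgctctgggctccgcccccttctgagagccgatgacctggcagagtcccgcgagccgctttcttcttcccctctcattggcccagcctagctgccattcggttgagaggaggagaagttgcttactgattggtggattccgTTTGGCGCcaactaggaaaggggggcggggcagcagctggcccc
The match begins at -44. One of the 3 motifs was present in 2.38% of all windows, in 4 of the 12 S phase members that rose and had an entry, and in 7 of the 13 others.

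Mitotic genes gave fewer calls: of 31 measured, 3 rose and 1 fell, against 5.32% and 4.44% of all genes. AURKA and PLK1, mitotic kinases, rose by 0.28 and 0.25, and KIF11, the bipolar kinesin, by 0.20. CDC25B, which activates CDK1, changed by -0.23. In medium, AURKA was at -0.28 and the list median at -0.194.

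Histone genes rose in part. Of 41 measured clustered and linker histone genes, 8 rose and 0 fell (2 lower at an unadjusted p under 0.05). The count includes the histone message binder SLBP, and the median was 0.102. Over all genes 5.32% rose. A DMSO mean above the median gene was seen for 9 of the 41, so most members had low signal. H2BC5 was at 9.54, 9.63 and 9.51 in treated arrays, against 8.63 to 9.07 with a median of 8.86 in DMSO arrays, a change of 0.70 ± 0.059 (adjusted p = 3.34e-16). H2AC6 was at 7.06, 6.97 and 7.03 against a DMSO range of 6.20 to 6.74, and changed by 0.55 ± 0.12. H2BC21 and the linker histone H1-10 changed by 0.30 and 0.44, although 1 probe set of each was lower. SLBP, which binds the stem-loop of replication-dependent histone messages, changed by 0.40. These families hold near-identical copies, so probe sets may share signal. Medium lay on the other side of DMSO for H2BC5 and H2AC6 (-0.63 and -0.66). At 5 uM, where 16.5% of all genes rose, 24 of the 41 rose and 0 fell (1 lower at an unadjusted p under 0.05), and H2BC5 and H2AC6 changed by 1.92 and 2.35.

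The largest rises began with TSC22D3, FSTL3 and SPATA3. TSC22D3, a glucocorticoid-induced leucine zipper protein that restrains NF-kB and AP-1, was at 9.58, 9.63 and 9.57 in treated arrays, against 8.49 to 8.81 with a median of 8.65 in DMSO arrays. Its change was 0.94 ± 0.057 (adjusted p = 3.57e-24), or 1.92 times the vehicle level. FSTL3, a secreted antagonist of activin, was at 10.40, 10.35 and 10.43 in treated arrays, against 9.37 to 9.65 with a median of 9.45 in DMSO arrays, a change of 0.90 ± 0.062. BCOR, a corepressor of BCL6, was at 9.25, 9.19 and 9.52 in treated arrays and 8.43 to 8.71 with a median of 8.60 in DMSO arrays, a change of 0.73 ± 0.076. The 3 genes separated fully from the vehicle. Against DMSO, medium was at -0.34 for TSC22D3, 1.04 for FSTL3 and 0.28 for BCOR, so FSTL3 was about as high in medium as under the drug. PTPRC, the phosphatase CD45, rose by 0.68 ± 0.14 (5 of 6 probe sets higher, 0.50 in medium), and CCR6, a chemokine receptor, by 0.68 ± 0.11 (0.65 in medium). ZC3H6, a zinc finger gene, rose by 0.81 (-0.61 in medium), and PER1, a clock repressor, by 0.43, with treated arrays at 8.78, 8.94 and 9.56, of which only replicate 3 lay above the DMSO range of 8.48 to 8.94, and 2 of its 3 probe sets were higher. SPATA3, COL15A1, GRIA3 and NAV3 were also among the 15 largest rises. They changed by 0.88, 0.71, 0.76 and 0.67, and were also higher than DMSO in medium (1.04, 0.59, 0.91 and 0.88). Only 1 of 4 probe sets of GRIA3 was higher. NEK6, a mitotic kinase, rose by 0.67, with 1.02 in medium.

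Among the other large falls, AZI2, an adaptor of the kinase TBK1, was at 7.15, 6.99 and 6.85 in treated arrays and at 7.85 to 8.04 with a median of 8.01 in DMSO arrays, a change of -0.98 ± 0.080. TESPA1, an adaptor of antigen receptor signalling in thymocytes, lay at 7.24, 7.20 and 7.26, below the DMSO range of 7.96 to 8.23, and changed by -0.85 ± 0.067. C6orf62 was at 10.97, 10.78 and 10.46 against 11.52 to 11.84 in DMSO arrays, with -0.90 under the drug and -0.57 in medium. NBPF3, of a duplicated gene family whose copies may share signal, changed by -0.99 ± 0.13. SMURF2, a ubiquitin ligase of TGF-beta signalling, and CES2, a carboxylesterase, changed by -0.70 and -0.77. NATD1, SLFN12, FGL2 and HOXC6 complete the 15 largest falls, with changes of -0.79, -0.69, -0.69 and -0.69. NATD1 was as low in medium (-0.85).

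NF-kB targets rose in part. Of 29 measured, 6 rose and 1 fell, against 5.32% and 4.44% of all genes, with a median of 0.071. ICAM1, an adhesion molecule, was at 11.58, 11.49 and 11.60 in treated arrays, against 10.90 to 11.06 with a median of 10.97 in DMSO arrays, a change of 0.59 ± 0.060, and it was at 0.68 in medium. NFKB2 and NFKB1, subunits of the factor, changed by 0.28 and 0.23, and BCL2L1 and BCL2A1, survival genes, by 0.36 and 0.33. For each of these survival genes 1 probe set was lower. NFKBID, an atypical inhibitor, was the member that fell (-0.47). The feedback inhibitors NFKBIA and TNFAIP3 had -0.047 ± 0.048 and 0.079 ± 0.060, and neither was called. At 5 uM 19 of the 29 rose and 2 fell, against 16.5% and 16.8% of all genes. In medium 11 of the 29 were called higher than DMSO and 4 lower, against 11.7% and 13.8% of all genes. The median in medium was 0.147. The part of vehicle content in this list was not tested.

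Immediate early genes, which protein synthesis inhibitors are known to superinduce, showed no common direction at 0.264 uM. Of 35 measured, 4 rose and 3 fell, with a median of 0.014, and all 4 rises were lost without treated replicate 3. At 5 uM 25 rose and 1 fell, with a median of 0.605, where 16.5% of all genes rose, against 5.32% at 0.264 uM. FOS was at 8.82, 8.90 and 9.06 in low-dose arrays, against 8.98 to 9.25 with a median of 9.15 in DMSO arrays, and was not called (adjusted p = 0.0619). EGR1 and IER2 had -0.045 ± 0.053 and 0.12 ± 0.053, neither called. JUN, KLF6, IER5 and DUSP2 rose by 0.23, 0.23, 0.22 and 0.11, and ID1, DUSP5 and ZFP36 changed by -0.38, -0.39 and -0.29. KLF2, a quiescence factor, was at 6.22, 6.30 and 6.24 in low-dose arrays, within the DMSO range of 5.33 to 6.32, and at 8.20, 7.76 and 7.83 at 5 uM. MYC, MCL1 and TXNIP were not called at 0.264 uM (0.014 ± 0.072, 0.075 ± 0.043 and 0.070 ± 0.12).

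Interferon response genes rose in part. Of 34 measured, 6 rose and 0 fell (2 lower at an unadjusted p under 0.05), with a median of 0.054. Over all genes 5.32% rose and 4.44% fell. IFIT3, an interferon-induced gene, was at 7.71, 7.77 and 7.86 in treated arrays, against 6.41 to 7.51 with a median of 7.01 in DMSO arrays. IFIT2 was at 7.77, 7.55 and 7.71 in treated arrays, against 6.77 to 7.41 with a median of 6.96 in DMSO arrays. The changes were 0.78 ± 0.14 and 0.64 ± 0.12, and the DMSO arrays themselves spread by about 1 unit for IFIT3. OASL, a relative of the oligoadenylate synthetases, IFIH1, an RNA sensor, and ISG20, an exonuclease, rose by 0.65, 0.44 and 0.47. In medium IFIT2 and IFIT3 were below DMSO (-2.16 and -0.84).

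B cell genes and antigen presentation showed single members that moved. Of 22 measured B cell identity genes, 2 rose and 2 fell, where 5.32% of all genes rose and 4.44% fell. CR2, the complement receptor, rose by 0.45 ± 0.078 (1.52 in medium), and CD37, a tetraspanin, changed by -0.42 ± 0.066. CD24 and CD72, at -0.62 and 0.52, lay below the level of the median gene. LYN, a kinase of the B cell receptor, had -0.038 ± 0.10. Of 18 measured MHC class II and costimulation genes, 3 rose and 0 fell (1 lower at an unadjusted p under 0.05). The background is again 5.32% for rises and 4.44% for falls. HLA-DMB, a subunit of the DM peptide exchanger, was at 10.79, 11.08 and 11.17 in treated arrays, against 10.07 to 10.36 with a median of 10.27 in DMSO arrays, a change of 0.76 ± 0.066. CD86 and CD80, ligands of CD28, rose by 0.37 and 0.39. HLA-DMB and CD86 were also higher in medium than in DMSO (0.73 and 0.95).

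Markers of other cells gave few calls, and none of the myeloid or erythroid and platelet markers had a DMSO mean above the median gene. Over all genes 5.32% rose and 4.44% fell. The T and NK list had 2 of 15 measured genes called higher, CD5 (0.30) and GZMB (0.64), and both were higher in medium as well (0.64 and 0.67). Its mean log2 level was 5.87 to 5.92 in treated arrays and 5.74 to 5.87 in DMSO arrays. The myeloid list had 0 of 13 called (1 higher and 1 lower at an unadjusted p under 0.05), fibroblast and endothelial 1 of 14 (PDGFRA, -0.32, with 1 of 4 probe sets lower), erythroid and platelet 1 of 10 (GP1BA, 0.48), and epithelial 0 of 10 (0 also at an unadjusted p under 0.05). All arrays compared are labelled OCI-Ly3, so the marker lists are given as RNA levels and not as shares of cell types.

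Tubulin and polyamine genes are known to be controlled during translation. Of 21 measured genes, tubulins counted with TTC5, which is not a tubulin, 2 fell at 0.264 uM, TUBG2 (-0.47) and TUBB3 (-0.30). Over all genes 4.44% fell at this dose. TUBB had 0.084 ± 0.039 without a call. At 5 uM, where 16.8% of all genes fell, 12 fell and TUBB changed by -0.36 ± 0.039. ODC1, the first enzyme of polyamine synthesis, AZIN1, which frees it from its inhibitor, and OAZ1, the inhibitor made by frameshifting, had -0.009 ± 0.043, 0.043 ± 0.063 and -0.027 ± 0.028, none called. SAT1, which acetylates polyamines for export, was at 9.65, 9.72 and 9.78 in treated arrays, against 10.10 to 10.31 with a median of 10.19 in DMSO arrays, a change of -0.47 ± 0.054, and was at -0.64 in medium.

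Both doses were set against each other directly. At 5 uM against 0.264 uM, 3859 genes differed (21.2%), of which 1890 were higher and 1969 lower at 5 uM. Against DMSO, 5 uM gave 6091 calls (33.4%), with 240 genes changed by more than 1. The 2 doses share the DMSO arrays, so their changes against DMSO are given side by side only. The direct differences were largest upward in RGCC, a cell cycle regulator, at 2.22, and in HTR2B, H2AC6, H3C4, KLF2 and PPP1R15A, at 1.84, 1.80, 1.71, 1.68 and 1.66. PPP1R15A, a phosphatase subunit that reverses eIF2 phosphorylation, was at 8.53, 8.55 and 8.36 at 0.264 uM, and at 10.05, 10.26 and 10.10 at 5 uM. Downward they were largest in BCR (-1.53), GALNT18 (-1.48), OLFM1 (-1.38) and CCNI (-1.36), among the 8 named by the rule.

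Sterol genes showed a split between the doses. In order of dose, INSIG1 ran from 10.32 to 10.68 in DMSO arrays, was at 10.09, 9.83 and 9.95 at 0.264 uM and at 10.70, 10.69 and 10.75 at 5 uM. The direct difference was 0.76 ± 0.078 (adjusted p = 2e-13). DHCR7 stood at 8.92, 8.85 and 8.94 at 5 uM (direct difference 0.68 ± 0.069) and SCD at 10.80, 10.75 and 10.65 (direct difference 0.62 ± 0.061). Against DMSO the 5 uM changes were 0.20, 0.17 and 0.18, all called. Of the 28 genes of the list, 10 were higher and 1 lower at 5 uM than at 0.264 uM, against 10.4% and 10.8% of all genes. The 10 include INSIG1, DHCR7 and SCD. ATF4 had a direct difference of 0.61 ± 0.048 (adjusted p = 4.76e-19), and HLA-DMB one of -0.94 ± 0.080, with 9.95, 10.12 and 10.15 at 5 uM. These 5 genes were picked because their calls against DMSO had opposite signs at the 2 doses, so the opposition is a description. ID1, RGS2 and DUSP1 were at -0.38, -0.34 and -0.25 at 0.264 uM and at 0.93, 0.26 and 0.99 at 5 uM, and DUSP1 was not called at the lower dose.

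**Figure D4:**
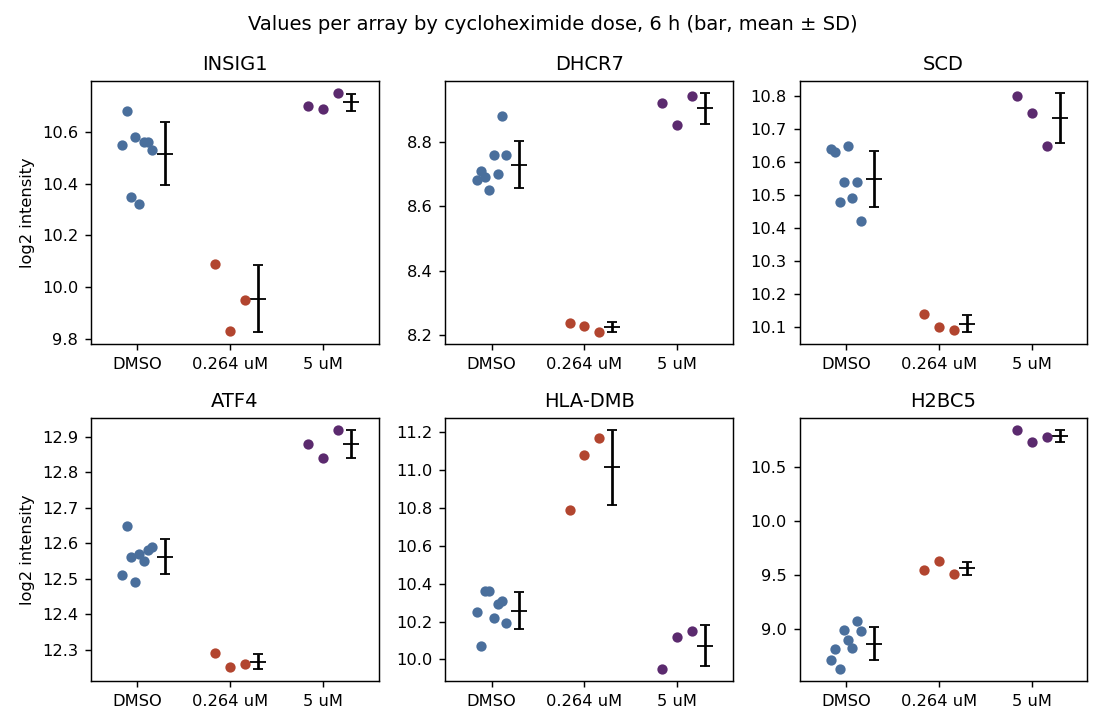
Log2 intensity per array of 6 genes at 6 h in DMSO (8 arrays), 0.264 uM and 5 uM cycloheximide (3 arrays each), with the mean ± SD as a bar. INSIG1, DHCR7, SCD and ATF4 are lowest at 0.264 uM, HLA-DMB is highest there, and H2BC5 is higher at each dose step.

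At 24 h the same dose was set against other DMSO arrays. With every array in the fit, limma called 0 genes at 24 h (223 at an unadjusted p under 0.05) and 1 at 12 h (0.00548%), DHCR7, at -1.81 ± 0.33. Some arrays of those times had low signal, defined as an ACTB 3' to 5' difference over 2 or a log2 upper quartile below 8. Of these, 31 were at 12 h and 17 at 24 h. The 31 include 1 treated array and 4 DMSO arrays of the 12 h comparison, all held in the fit that gave DHCR7. Without low-signal arrays 1639 genes were called at 24 h (8.99%), 741 higher (4.06%) and 898 lower (4.92%). No treated array and 1 DMSO array of the 24 h comparison were among the 17. Of the 971 genes that rose at 6 h, 73.9% were above 0 at 24 h in that fit, where 44% of all genes were. Of the 810 that fell, 81.2% were below 0, where 56% of all genes were. Called at both times were 232 rises, which is 23.9% of the 6 h list and 31.3% of the 24 h list, and 248 falls, 30.6% and 27.6%.

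Without low-signal arrays EIF5, BAG1, AZI2 and MSMO1 were at -0.93 ± 0.070, -0.87 ± 0.066, -0.77 ± 0.097 and -0.68 ± 0.075 at 24 h, all called. DHCR7, INSIG1 and SCD were at -0.93, -0.74 and -0.61, and 17 of the 28 sterol and fatty acid genes fell. HLA-DMB, TSC22D3 and PTPRC remained higher, at 1.00, 0.62 and 0.64. Other genes were near the vehicle by 24 h. HSPA5, XBP1 and DNAJB1 were at -0.055 ± 0.076, 0.12 ± 0.088 and -0.057 ± 0.060, and FSTL3, ICAM1 and CDC25A at -0.030, -0.039 and -0.18, none called. The 24 h effect minus the 6 h effect was 0.62 ± 0.10 for HSPA5 (adjusted p = 4.79e-06), 0.72 ± 0.11 for XBP1, -0.93 ± 0.10 for FSTL3 (adjusted p = 9.83e-12) and -0.63 ± 0.091 for ICAM1. It was 0.61 ± 0.081 for EPB41L4A-AS1 and 0.51 ± 0.10 for EIF5. For BAG1 the difference was 0.12 ± 0.083 and for HLA-DMB 0.24 ± 0.11, neither called. That test gave 297 genes without low-signal arrays (1.63%), 115 with a higher value at 24 h (0.631%) and 182 with a lower one (0.998%), and 0 with all arrays (60 at an unadjusted p under 0.05).

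**Figure D5:**
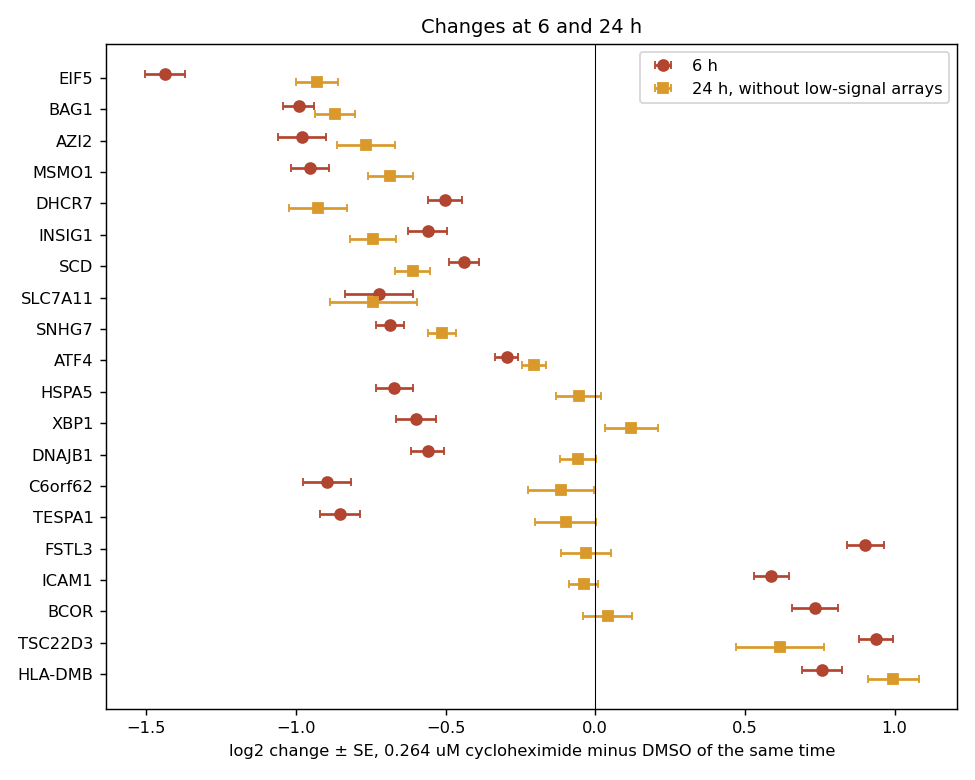
Log2 change ± standard error of 20 genes at 0.264 uM cycloheximide against DMSO of the same time, at 6 h (circles) and at 24 h without low-signal arrays (squares). EIF5, BAG1, AZI2 and MSMO1 lie left of 0 at both times, HSPA5, XBP1 and FSTL3 lie near 0 at 24 h, and HLA-DMB lies right of 0 at both.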

How the data were processed

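The platform was the Affymetrix HT HG-U219 array, with RNA of 1 well on each. The deposited values are on a log2 intensity scale, judged from their range, and were made by the authors with RMA, per the submitters' processing notes. RMA in its usual form corrects background, quantile-normalizes and summarises per probe set. Its settings and version and the genome build are not given in the sources used here. Of 49386 probe sets, 45259 carried 1 gene symbol in the platform annotation and 4127 were left out (93 of them controls). Each of 18239 genes was represented by its brightest probe set, judged by the mean of the 282 arrays.

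All 94 arrays of a time were fitted with limma 3.58.1 in R 4.3.3 (eBayes with a trend), 1 mean per group, with calls at a Benjamini-Hochberg adjusted p under 0.05 per contrast. The fit was tested on simulated data with independent noise per array. It found 19 of 50 genes with a true change of 0.25, 42 of 50 at 0.5 and 50 of 50 at 1. It called 11 of 18039 unchanged genes. A gene without a call may thus still have changed by 0.25. The 24 h effect minus the 6 h effect was fitted on all 282 arrays. Medium against DMSO was added after values were seen. Members of the comparison, the 36 gene lists and the naming rule were chosen with earlier results of these data known. The rule names the 15 largest rises and falls among called genes with every treated array beyond every DMSO array, up to 5 called members per direction and 3 other members of each list, the 8 largest differences between doses in each direction, 5 genes of opposite sign at the 2 doses, and a fixed set; the text gives a selection of these. Lists are described by counts and medians. Promoters are from RefSeq (GRCh38.p14). No detection calls were used, so genes near background stayed in, and the number of arrays limits the precision: the median standard error was 0.0988. Alternatives were normalization, low-intensity filter, probe set summary, the arrays in the fit, a replicate block, the prior trend and arrays left out. Python 3.11.15 drew the figures.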

Additional observations from a re-analysis of the deposited data

Results flagged for a closer look

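Among the 8 DMSO arrays of 6 h, an array stood apart by Dixon's criterion for 5 of the 160 genes named, and chance gives about 1 in 20 at each gene. JUN was highest at 10.49 in DMSO replicate 2, with the next array at 10.24. KIF11 was highest at 10.97 in the same replicate, with the next at 10.86, and BOP1 was lowest there at 9.27, with the next at 9.43. C6orf62 was highest at 11.84 in DMSO replicate 8, and RPL27A was lowest at 5.41 in DMSO replicate 6. DMSO replicate 2 is the array with the highest GAPDH and ACTB 3' to 5' differences of its group. With it left out 1741 genes were called, against 1781.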

How the results depend on the processing

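The count of 1781 at 0.264 uM stayed within 1.5 times under each alternative other than the fit with a replicate block on the 2 groups compared. It lay between 1227 and 1767 with 1 array left out, rises between 551 and 971 and falls between 526 and 835. With the arrays of a GAPDH 3' to 5' difference of 0 or more left out (treated replicate 3 and DMSO replicate 2), an alternative chosen after seeing the data, 1201 were called, 512 higher and 689 lower. Labels give groups the same replicate numbers, but same-numbered arrays did not deviate together (r = 0.193, -0.132 and -0.035 for low dose with DMSO, and 1 of 3 treated arrays correlated best with its own number), so the numbers were not taken as pairs. With the replicate block 180 were called, 99 higher and 81 lower. That fit also leaves out the other groups (1656 without the block) and rests on 3 pairs, since DMSO replicates 4 to 8 have no treated array of their number, so the drop cannot be put down to the block alone. In it, 61 of the 129 genes named and called kept their call, and the 5 uM count was 4907 and the dose count 3739 with the block. At 12 h the count was 1, against 73 with only the 2 groups fitted, 462 without low-signal arrays, and 0 to 10 with 1 treated array left out. At 24 h it was 0, against 300 with only the 2 groups fitted and 1639 without low-signal arrays, and the time difference gave 0 and 297 without them; these removals were chosen after seeing the data. RPL35A reversed to -0.067 when all probe sets of a gene were averaged (adjusted p = 0.693), and 15 calls were lost, to 0.101 for PER1, -0.001 for PDGFRA, 0.060 for H2BC21, 0.126 for BCL2L1 and 0.067 for SREBF1, and for CRELD2, HYOU1, VARS1, CCND3, H1-10, BCL2A1, GRIA3, NARS1, FARSB and RPL32. Of the 129 genes, 90 kept their call under every alternative other than the block. Without treated replicate 3, 22 lost it (EIF2B3, RPL8, TAF1D, HYOU1, CCT5, ATF5, VARS1, SREBF1, CCND2, CCND3, PLK1, BCL2A1, JUN, KLF6, IER5, IFIH1, PER1, SARS1, RPL32, DUSP2, RGCC and H3C4). Without treated replicate 2, 20 lost it (EIF6, RPL3, RPL8, TAF1D, SREBF1, PMVK, CDC25B, KLF6, IER5, DUSP5, PDGFRA, GP1BA, NARS1, SARS1, FARSB, RPL32, DUSP2, POLR1B, CD24 and H3C4), and without treated replicate 1, 13 (RPL8, SNHG12, TAF1D, CCT5, SREBF1, CDC25B, KLF6, DUSP5, SARS1, FARSB, POLR1B, RGCC and H3C4). Leaving out 1 DMSO array lost 2 to 8 calls, among RPL8, TAF1D, HYOU1, SREBF1, SARS1, FARSB, RPL32 and H3C4. The cause was not tested. Signal near background limits COL15A1, GRIA3, CD72, CD24 and RPL27A.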
